A study of Homo sapiens with 3 samples.

Results

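RPPH1 and RMRP, the RNA subunits of the endonucleases RNase P and RNase MRP, were taken by gene name from a table of genomic windows in which reads bound by mutant DIS3L2 carried added 3′ uridines. Each gene had 1 listed window of 50 nt, so the pair made up 2 of the 61 windows annotated as misc_RNA and 2 of the 1533 windows of the table. The other 59 misc_RNA windows served for comparison and came from Y RNA, vault RNA, 7SL and 7SK genes and pseudogenes.

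The libraries were CLIP-seq, which sequences the RNA crosslinked to a protein, from human embryonic kidney cells, labelled HEK293 and named HEK293T-Rex in the study's methods, overexpressing the D391N mutant of DIS3L2. There were 3 replicate libraries of this 1 group and no control group. Per the study's methods, the protein was Flag-tagged and induced from a stably integrated construct, and no removal of the cells' own DIS3L2 is described for these libraries. The amounts of mutant and normal protein in the cells were not examined here. The deposited table gave, for each window, sums over the 3 libraries of the unique reads and of the uridylated reads, which ended in at least 4 U not encoded in the genome, so the spread between libraries could not be computed and every interval below covers counting error only.

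DIS3L2 is a 3′ to 5′ exoribonuclease of the cytoplasm that prefers substrates ending in added uridines, and the D391N change removes its catalytic activity, so that bound RNAs can be recovered undegraded. RNase P is a ribonucleoprotein whose RNA, RPPH1, catalyses removal of the 5′ leader from tRNA precursors. RNase MRP is its relative, with RMRP as the RNA, shares most of its protein subunits and acts in the nucleolus on ribosomal RNA precursors. RNA polymerase III makes both RNAs, which act mainly in the nucleus, and its transcripts end in encoded uridines at a T run.

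The sequences of both RNAs are shown so that the place of the listed window within each can be seen. They were read from GRCh37, 5′ to 3′ on the minus strand, over chr14:20811271-20811570 for RPPH1, which is the first 300 nt of its estimated extent, and chr9:35657751-35658014 for RMRP, which is the whole annotated RNA. Capitals mark the listed 50-nt window.
RPPH1: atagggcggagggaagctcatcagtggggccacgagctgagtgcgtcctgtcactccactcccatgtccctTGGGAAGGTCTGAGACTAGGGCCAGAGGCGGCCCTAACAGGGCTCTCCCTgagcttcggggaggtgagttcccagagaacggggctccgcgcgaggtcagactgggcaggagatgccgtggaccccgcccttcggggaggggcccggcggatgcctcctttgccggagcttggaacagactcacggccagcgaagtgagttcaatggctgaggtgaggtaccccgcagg
RMRP: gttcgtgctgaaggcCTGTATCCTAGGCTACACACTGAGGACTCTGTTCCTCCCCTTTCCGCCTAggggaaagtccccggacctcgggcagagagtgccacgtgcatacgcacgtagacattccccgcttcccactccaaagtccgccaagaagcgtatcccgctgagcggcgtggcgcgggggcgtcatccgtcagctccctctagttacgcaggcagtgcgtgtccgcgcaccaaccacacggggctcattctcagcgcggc

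The RPPH1 window, chr14:20811450-20811499, held 1535 unique reads, of which 1031 carried a U tail and 504 did not. Its U+ fraction, the percentage of unique reads that were uridylated, was 67.2% (95% Wilson interval 64.8 to 69.5). The RMRP window, chr9:35657950-35657999, held 2200 unique reads, of which 1016 carried a U tail and 1184 did not, giving a U+ fraction of 46.2% (44.1 to 48.3). Tails were therefore on the larger share of RPPH1 reads and on the smaller share of RMRP reads.

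The U+ fraction of RPPH1 was 21.0 percentage points above that of RMRP (95% Newcombe interval 17.8 to 24.1, Fisher's exact test on reads, two-sided p = 3.20e-37). This test compared the reads of 2 windows, not conditions, and copies of 1 molecule made by PCR were counted as separate reads wherever they were not collapsed. With all counts divided by 10, as if each molecule had been counted 10 times, the difference was 20.5 points (10.3 to 30.0, Fisher's exact p = 9.31e-05). With counts divided by 50 the interval included 0, at 22.3 points (-0.504 to 41.7, Fisher's exact p = 0.0644).

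The number of tailed reads was nearly the same for the pair, with an RMRP to RPPH1 ratio of 0.985, whereas RMRP had 2.35 times as many reads without a tail. Tailed reads per untailed read came to 2.05 for RPPH1 and 0.858 for RMRP. In raw counts the 2 windows thus differed more in untailed than in tailed reads. These counts were not scaled to the level of each RNA. Reads are fragments, so an untailed read need not come from an untailed molecule. Whether less of the RMRP was tailed, or more of it was bound or present in the cells, cannot be told apart from these counts. The study also sequenced rRNA-depleted RNA of D391N-expressing and control cells, which was not used here.

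Among all 61 misc_RNA windows, RPPH1 ranked 9 by unique reads, 6 by tailed reads and 31 by U+ fraction, and RMRP ranked 7, 7 and 47. Both were thus among the windows with the most tailed reads, while their U+ fractions lay in the middle and in the lower part of the class. RPPH1 held 0.334% and RMRP 0.329% of the tailed misc_RNA reads, most of the remainder being vault RNA. In the whole table of 1533 windows, RPPH1 ranked 58 and RMRP 59 by tailed reads.

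The other 59 misc_RNA windows had a median U+ fraction of 67.9% (range 0.719 to 98.2) over a median of 154 unique reads (24 to 413061). Of these, 29 (49.2%) had a lower U+ fraction than RPPH1 and 14 (23.7%) a lower one than RMRP. The lower Wilson bound lay above 50% in 38 of the 59 (64.4%), as it did for RPPH1 but not for RMRP. By this measure neither RNA stood apart from its class.

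**Figure D1:**
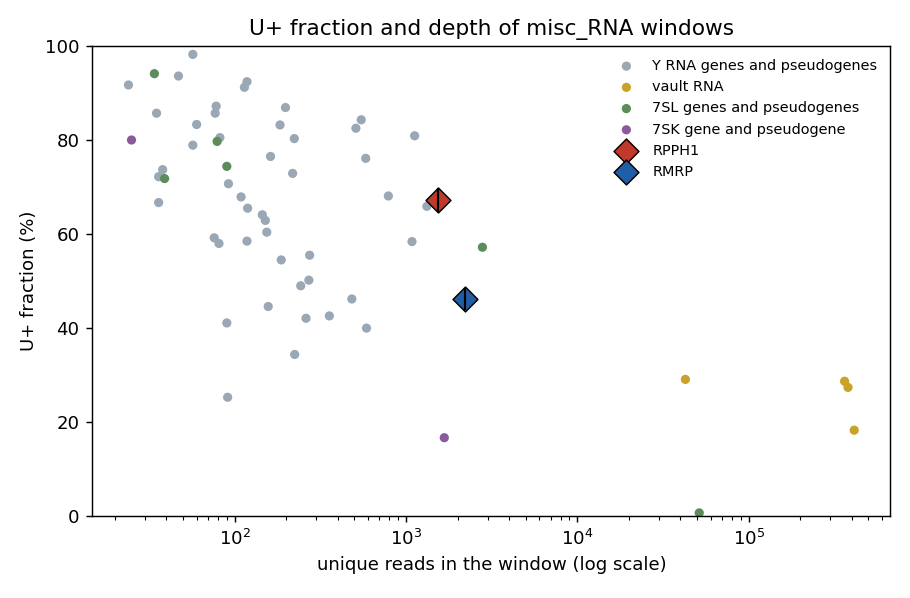
Each point is a misc_RNA window, with unique reads summed over the 3 libraries on a log axis and the U+ fraction in percent, coloured by RNA family; the vertical bars on the 2 diamonds are 95% Wilson intervals. RPPH1 at 67.2% of 1535 reads and RMRP at 46.2% of 2200 reads lie to the right of most Y RNA windows and above the vault RNA windows and RN7SK.

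Depth differed widely across the class, and most windows held fewer reads than RPPH1 or RMRP. Among the 10 other windows with at least 1000 unique reads, the median U+ fraction was 28.9%, 9 lay below RPPH1 and 6 below RMRP. The exception above RPPH1 was RNY4P7, a Y RNA pseudogene, at 80.9%. RPPH1 was therefore near the top of the deeply read windows alone. These 10 had a median of 22766.5 unique reads and included all 4 vault RNA windows, so they were not matched to the pair in depth. Among windows with unique reads within 3-fold of each member, 5 of 9 lay below RPPH1 and 1 of 6 below RMRP. The parts of depth and RNA family in these placings were not tested.

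Of the abundant polymerase III RNAs, RN7SK, which holds the elongation factor P-TEFb in an inactive complex, had 280 tailed reads of 1673 (16.7%, 15.0 to 18.6), at a depth close to that of RPPH1. RPPH1 was 50.4 points (47.4 to 53.3) and RMRP 29.4 points (26.7 to 32.1) above it. RN7SL1, the RNA of the signal recognition particle, had 370 tailed reads of 51465 (0.719%, 0.650 to 0.796), which was 66.4 points (64.1 to 68.8) below RPPH1 and 45.5 points (43.4 to 47.6) below RMRP. Both exceeded these RNAs by more than the counting error. However, the RN7SL1 window had 55 near-identical copies in the genome and the RN7SK window 6, against 0 for RPPH1 and RMRP. Only uniquely mapped reads were counted, and the part of such copies in these differences was not tested.

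VTRNA1-2, the vault RNA window with the most reads, had 75430 tailed reads of 413061 (18.3%, 18.1 to 18.4), 48.9 points (46.5 to 51.2) below RPPH1 and 27.9 points (25.8 to 30.0) below RMRP. All 4 vault RNA windows, with a median of 28.0%, lay below both RNAs. The order was different against the pseudogene-rich families, since 22 of 47 Y RNA windows lay below RPPH1 and 8 below RMRP, and 2 of 6 7SL windows lay below RPPH1 and 1 below RMRP.

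Outside the misc_RNA class, 41 of 46 tRNA windows (89.1%), the substrates of RNase P, lay below RPPH1, and 27 (58.7%) below RMRP, with a tRNA median of 40.8%. The 43 windows on 5S rRNA had a median of 81.0%, with 8 of them below RPPH1 and 0 below RMRP. Of the 1136 mRNA windows, 42.8% lay below RPPH1 and 9.60% below RMRP. RPPH1 was thus above most tRNA windows and below most 5S windows.

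The windows next to each RNA in the order of U+ fraction were all Y RNA genes or pseudogenes. Below RPPH1 came Y RNA windows at 66.7% (24 of 36 reads) and 65.9% (873 of 1324), and above it RNY4P2 at 67.9% (74 of 109) and a Y RNA window at 68.1% (537 of 789). Below RMRP came RNY4P25 at 46.2% (223 of 483) and a Y RNA window at 44.6% (70 of 157), and above it Y RNA windows at 49.0% (119 of 243) and 50.2% (136 of 271). The 95% intervals of all 8 differences included 0, so the exact ranks within the class were not resolved.

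The study kept a window when the probability that its U+ frequency exceeded 0.25, multiplied over the libraries, reached 0.95. Computed here from the summed reads instead, with a uniform prior, that probability was 1 to rounding for RPPH1 and for RMRP, as it passed 0.95 in 96.8% of all windows of the table, so the pair had no place of its own here. Against a frequency of 0.5 it stayed at 1 for RPPH1 and was 0.000170 for RMRP.

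The windows were also placed along the RNAs. The table's transcript for RPPH1 was not in the annotation used here, so its 5′ end was estimated at position 20811570 by alignment with the annotated pseudogene RPPH1-3P (225 of 289 columns identical, 77.9%), and its 3′ end from the RefSeq length of 341 nt. On that estimate the RPPH1 window covered nt 72 to 121 of 341, its midpoint fell at 28.2% of the length, and 220 nt of RNA lay between the window and the 3′ end. The RMRP window covered nt 16 to 65 of the 264 nt annotated, with its midpoint at 15.2% and 199 nt between it and the 3′ end. On these ends both windows lay far from the 3′ end.

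In the annotation, the gene identifier listed for RPPH1, ENSG00000259001, is a lncRNA of 638 nt on the same strand that contains it. Counted along that transcript, the window lay at nt 346 to 395 with its midpoint at 58.0%. Reads in the window cannot be assigned to 1 of these RNAs, so the RPPH1 position holds only if its reads came from the short RNA. RMRP is listed as ENSG00000269900, and the annotation holds the listed transcript under ENSG00000277027, with no longer transcript. RefSeq gives RMRP 270 nt, and with the further bases at the 3′ or the 5′ end the midpoint was 14.8% or 17.0%.

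**Figure D2:**
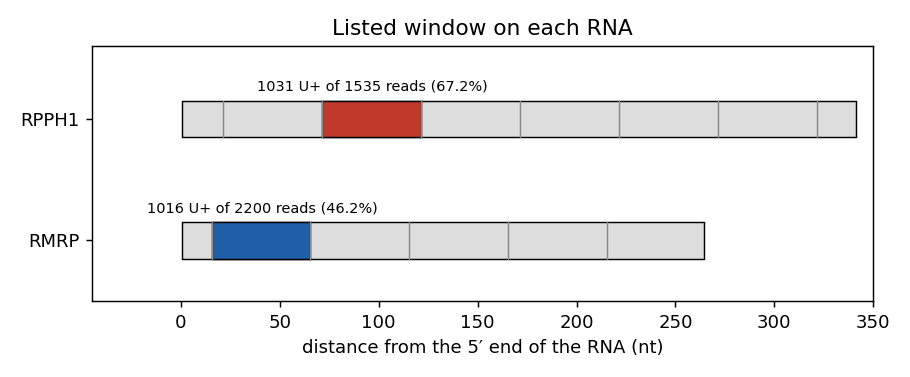
The grey bars are RPPH1 (341 nt, estimated ends) and RMRP (264 nt), drawn by distance from the 5′ end in nt, with thin lines at the borders of the 50-nt windows and the listed window coloured. Each RNA had 1 listed window, at nt 72 to 121 in RPPH1 and nt 16 to 65 in RMRP, and the 3′ part of each holds none.

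The grid of windows laid 8 over RPPH1 and 6 over RMRP, and 1 of each was listed. No other listed window of any class lay within 1000 nt of either gene. The counts of unlisted windows were not analysed here, so reads over the rest of each RNA may have been present below the study's limits, which were at least 20 reads and the probability above.

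Of the other misc_RNA windows, 58 could be placed on an annotated transcript, and RN7SL1 could not. Their midpoints had a median of 77.4% of the length (32.5 to 120.8, where values over 100 lie past the annotated end). The 3′ end fell inside the window in 36 of 58 (62.1%) and in neither RPPH1 nor RMRP. The midpoint lay in the first 50% of the RNA in 6 of 58 (10.3%) and in both RPPH1 and RMRP. As a percentage of length, both midpoints were nearer the 5′ end than all 58. On the host transcript of 638 nt that of RPPH1 was not, at 58.0%. In nt this order did not hold. A Y RNA window lay at nt 11 to 60 and another at nt 16 to 65, the same place as RMRP. RPPH1, at nt 72 to 121, began farther from the 5′ end than many windows on the shorter RNAs.

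**Figure D3:**
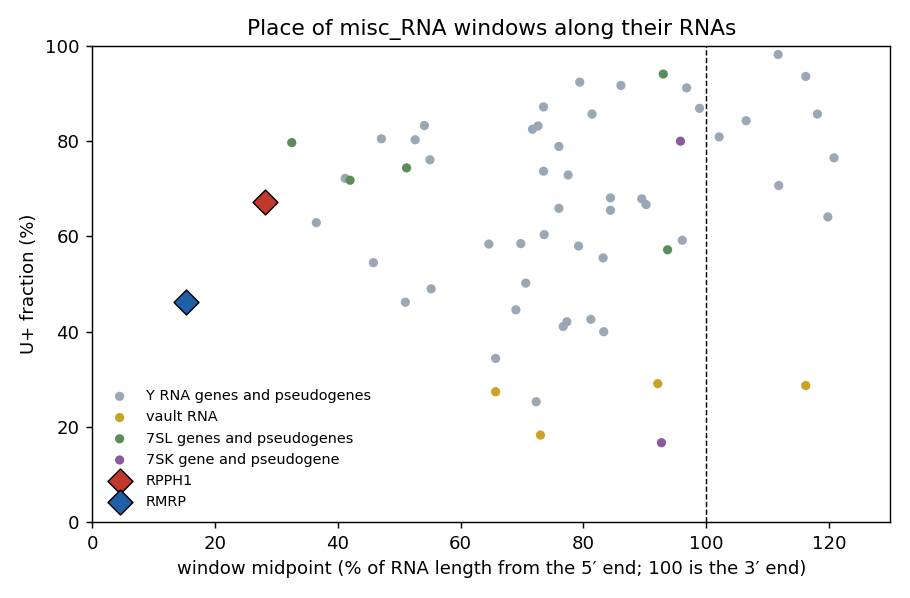
Each point is a misc_RNA window, with its midpoint in percent of the RNA's length from the 5′ end against its U+ fraction in percent; the dashed line is the annotated 3′ end and RN7SL1 is not drawn. RMRP at 15.2% and RPPH1 at 28.2% of their lengths are the leftmost points, while the other 58 have a median of 77.4%.

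RNA length differed along with position. A 50-nt window covers much of a short RNA, and the other RNAs had a median length of 97 nt (85 to 331). Of the 7 others of at least 200 nt, 4 had the 3′ end inside the window. The midpoint lay in the first 50% of the RNA in 2 of them, the 7SL pseudogenes RN7SL480P, at nt 71 to 120 of 292 and so placed much like RPPH1, and RN7SL712P, at nt 102 to 151 of 300. These had U+ fractions of 79.7% and 71.8%, from only 79 and 39 unique reads. A window in the 5′ part of a long misc_RNA transcript was thus not found in RPPH1 and RMRP alone, although these pseudogene windows were thinly read.

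RN7SK is printed as the contrast, because it is a long polymerase III RNA read at similar depth whose window does reach the 3′ end. Its sequence runs over chr6:52860700-52860799, plus strand, GRCh37, and holds the listed window and the 50 nt past it, with runs of at least 4 T in capitals.
RN7SK: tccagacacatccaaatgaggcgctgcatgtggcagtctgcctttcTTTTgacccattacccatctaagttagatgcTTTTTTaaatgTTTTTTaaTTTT

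An encoded T run can be hard to tell from an added tail, so runs of at least 4 T (letters TTTT, searched on the RNA's strand only) were counted in each window and the 50 nt past it. Neither RPPH1 nor RMRP held one, and 30 of the other 59 windows (50.8%) did. The longest run was 2 T for RPPH1 and 3 T for RMRP, against a median of 4 (2 to 13). All 10 of the other windows with at least 1000 unique reads held such a run, and 7 of the 9 of them that could be placed held the 3′ end. RPPH1 and RMRP were thus the deeply read misc_RNA windows without either feature. These features are not independent, because the 50 nt searched did not reach the 3′ ends, 220 and 199 nt past the windows. The thinly read windows of RN7SL480P, RN7SL494P and RN7SL712P, also inside long RNAs, had neither feature as well.

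By family, a T run was present at 4 of 4 vault RNA, 2 of 2 7SK, 22 of 47 Y RNA and 2 of 6 7SL windows. The median U+ fraction was 63.2% (0.719 to 98.2) over the 30 windows with a run and 72.2% (34.4 to 94.1) over the 29 without. The first range contained the second, and the part of RNA family in this difference was not tested. RPPH1 and RMRP lay below the median of windows without a run, and RMRP within the lower part of their range.

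The RPPH1 window was rich in G and C, which made up 64% of its bases, more than in any of the 59 others (median 40%, 18 to 62). It held 18 G, against a median of 7 and a highest value of 16 elsewhere, and 8 T against a median of 15. The RMRP window had 54% G and C, 8 G and 15 T. The RPPH1 window thus had the highest G and C content and the most G of the class, and the RMRP window did not. For T the RPPH1 window was not the extreme, since 3 others held fewer. Per the study's methods RNase T1, which cuts after G, trimmed the RNA, and the part of G content in the read counts was not tested.

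Folded alone with RNAfold, the RPPH1 window had a minimum free energy of -25.4 kcal/mol with 32 of 50 bases paired, and no other window had a lower energy (median -4.30, -15.0 to 0). The RMRP window had -11.7 kcal/mol with 20 bases paired, and 6 others were lower. This is the predicted fold of a 50-nt stretch without its proteins or the rest of the RNA. Stretches with more G and C have lower predicted energies in general, and RPPH1 was at the end of the range in both.

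**Figure D4:**
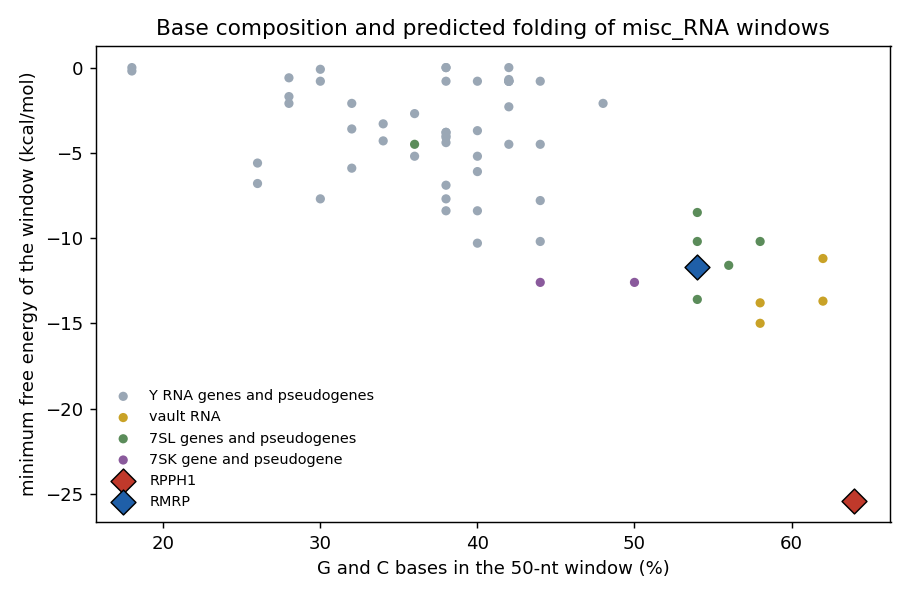
Each point is a misc_RNA window, with its G and C content in percent against the minimum free energy of the 50-nt stretch in kcal/mol. RPPH1, at 64% and -25.4 kcal/mol, stands below and to the right of all 59 others, and RMRP, at 54% and -11.7 kcal/mol, lies among the 7SL and 7SK windows.

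Neither RNA had a near-identical copy of its window elsewhere in the genome. Such a copy was defined as a stretch of 45 nt or more that differed at no more than 2 positions. The search found 0 copies of either window, whereas 20 of the other 59 windows had copies, up to 55 for RN7SL1. The best match elsewhere covered 24 of 26 columns for RPPH1 and 34 of 42 columns for RMRP.

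The pair also shared a feature of genome position. The start of PARP2, a poly(ADP-ribose) polymerase of DNA repair, lay 299.5 nt from the midpoint of the RPPH1 window on the opposite strand, and that of CCDC107 lay 312.5 nt from the midpoint of the RMRP window, also on the opposite strand. Only protein-coding starts on the 5′ side of a window, with the gene running away from it, were counted. Among the 59 others such a start lay within 1000 nt at 1 window (1.69%), RN7SK, with GSTA4 at 622.5 nt. Neither PARP2 nor CCDC107 had a listed window, like most protein-coding genes. This feature was looked up after the annotation had been seen.

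Of the 20175 protein-coding genes annotated, 1048 (5.19%) had a listed window of any class. Of 11 genes for shared or specific subunits (POP1, POP4, POP5, POP7, RPP14, RPP21, RPP25, RPP25L, RPP30, RPP38 and RPP40), 2 had a window, RPP25L and RPP14, a number too small to set against that share. RPP25L had 23 tailed reads of 27 (85.2%, 67.5 to 94.1) in chr9:34612050-34612099, and 85.0% of mRNA windows were lower. RPP14 had 30 of 43 (69.8%, 54.9 to 81.4) in chr3:58292300-58292349, with 48.2% of mRNA windows lower. The RPP14 interval included the U+ fraction of RPPH1, the RPP25L interval began just above it, and both intervals lay above the RMRP value. These windows held few reads, and no difference was tested. Of the 3 proteins of mitochondrial RNase P, which works without an RNA (TRMT10C, HSD17B10 and PRORP), 0 had a window, as was the case for most protein-coding genes.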

How the data were processed

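CLIP-seq reads of 3 libraries were processed by the authors, who mapped them with Segemehl to hg19 (GRCh37), version not given in the sources used here, and deposited read counts per 50-nt window (unique reads and reads ending in at least 4 untemplated U) summed over the libraries. The submitters' processing notes also name Subread. The sums were used as deposited, without normalization. Windows ranged from 7 to 678516 unique reads, although the methods state a minimum of 20.

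U+ fractions have 95% Wilson intervals, differences Newcombe intervals and Fisher's exact test, two-sided (scipy 1.17.1). Positions used GENCODE 44 lifted to GRCh37. Copies were searched with blastn 2.17.0 and folds computed with ViennaRNA 2.7.2. The Wilson and Newcombe intervals were tested on simulated counts, and the percentile and probability calculations on known values. The placing of windows and the T run, copy and gene start searches were not tested in this way. RPPH1, RMRP and the gene lists were chosen with earlier results of these data known. Named beside them were the 2 misc_RNA windows next above and below each by U+ fraction, RN7SK, RN7SL1, the vault RNA window with the most reads, listed windows within 1000 nt and listed subunit genes; RNY4P7, RN7SL480P, RN7SL712P, PARP2, CCDC107 and GSTA4 were named after their values were seen. Alternatives were exact intervals, counts divided by 10 and 50, other comparison windows, other transcript ends and another frequency.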

Additional observations from a re-analysis of the deposited data

How the results depend on the processing

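The U+ fractions and their bounds were the same with exact intervals. The RPPH1 to RMRP difference kept its direction, but with counts divided by 50 it no longer passed the test (22.3 points, Fisher's exact p = 0.0644). The share of windows below RPPH1 was 64.9% among windows with at least 100 unique reads, and the share below RMRP was 12.3% among all other windows of the table. Among windows with at least 1000 unique reads, a setting chosen after seeing the data, the shares were 90% and 60%. The remaining sets left these shares within their counting interval. With the window start counted from 0, midpoints were 27.9% for RPPH1 and 14.8% for RMRP, which was 14.8% or 17.0% at its RefSeq length, also added after seeing the data; on the longest annotated transcript that of RPPH1 was 58.0%. The probability for RMRP was 0.000170 against a frequency of 0.5. Because the counts are sums, no library could be left out, and the precision rests on reads alone. No paired analysis was possible because there was 1 group and its libraries were pooled.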
